A study of Mus musculus with 4 samples.

Results

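The 10 genes described here are the nuclear receptors Ppara, Ppard, Pparg, Rxra, Esrra, Esrrb and Esrrg, the coactivators Ppargc1a and Ppargc1b, and the transcription factor Nrf1. They were taken by gene symbol from the 23337 genes listed in each library for their known role in energy metabolism. All 10 had reads in every library. RNA was sequenced from whole hearts of C57BL6/J mice in which PIMT (gene Tgs1), a protein that binds the nuclear receptor coactivator NCOA6, was deleted in cardiomyocytes. These csPIMT-/- mice carry the loxP-flanked PIMT allele together with Cre under the α-myosin heavy chain promoter, and the controls were PIMT fl/fl mice with the same floxed allele. There were 4 groups, PIMT fl/fl and csPIMT-/- at 2 and at 6 months of age, and each group was 1 library made from the pooled RNA of 5 hearts, male and female. No group had a second library, so a value within an age carries only its counting error. The comparison asked how loss of PIMT changed the expression of these regulators at each age.

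PPARs are ligand-activated receptors that bind DNA as pairs with an RXR and switch on genes of fatty acid uptake and oxidation, with PPARα the main form for this task in the heart. The estrogen-related receptors (ERRs) bind without a known natural hormone and drive genes of the tricarboxylic acid cycle and the respiratory chain. PGC-1α and PGC-1β dock on both receptor families and raise their activity, and NRF1 controls nuclear genes for mitochondrial proteins. The adult heart takes most of its energy from fat and depends on this network.

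Promoter sequence is shown for Ppargc1a, Ppara and Esrra. Over both ages by limma, Ppargc1a had the largest fall and Esrra was the only member called higher. Those results are from the fit before the GC subtraction described below, after which neither gene was called. Ppara is the PPAR of heart muscle. Each window runs from 250 bases before to 50 bases after a RefSeq transcription start on GRCm38.p6, is written on the strand of the gene, and covers chr5:51567676-51567975 on the minus strand, chr15:85735526-85735825 on the plus strand and chr19:6921759-6922058 on the minus strand. Capitals mark the short cyclic AMP response element (CRE) TGACG, read on the other strand, in Ppargc1a, and the NRF1 core GCATGCGC in Ppara and Esrra. In Ppara the core is present on both strands in an overlapping pair.
Ppargc1a: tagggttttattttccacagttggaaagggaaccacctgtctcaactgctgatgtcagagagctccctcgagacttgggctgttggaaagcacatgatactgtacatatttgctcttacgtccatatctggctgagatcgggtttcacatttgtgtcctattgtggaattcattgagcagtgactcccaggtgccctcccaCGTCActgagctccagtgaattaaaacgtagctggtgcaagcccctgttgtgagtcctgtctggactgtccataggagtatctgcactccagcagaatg
Ppara: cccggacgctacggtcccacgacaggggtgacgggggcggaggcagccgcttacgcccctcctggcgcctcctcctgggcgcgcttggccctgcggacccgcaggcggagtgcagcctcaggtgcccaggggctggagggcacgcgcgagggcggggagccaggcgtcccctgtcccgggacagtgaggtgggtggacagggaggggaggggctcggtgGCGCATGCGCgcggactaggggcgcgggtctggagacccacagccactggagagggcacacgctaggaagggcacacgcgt
Esrra: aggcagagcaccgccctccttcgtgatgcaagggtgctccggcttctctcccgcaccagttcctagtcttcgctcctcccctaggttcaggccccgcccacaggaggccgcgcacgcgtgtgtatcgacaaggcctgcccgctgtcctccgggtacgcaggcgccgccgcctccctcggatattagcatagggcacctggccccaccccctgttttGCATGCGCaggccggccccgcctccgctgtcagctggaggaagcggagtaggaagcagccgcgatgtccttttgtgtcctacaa

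These motifs were searched on both strands in 17 windows, from 9 of the 10 genes, and in all 32851 windows of the table. The NRF1 core was in 2.71% of all windows and in 2 of the 17. They belonged to Ppara, where the pair began 31 and 29 bases before the start, and to Esrra, 34 bases before the start. The short CRE was common, at 20.8% of all windows, and occurred in 4 of the 17, from Esrrb, Ppara, Ppard and Ppargc1a. In Ppargc1a it began 49 bases before the start. The ERR element TCAAGGTCA (0.423% of all windows) and the full CRE TGACGTCA (1.79%) were in 0 of the 17 windows. The receptor core AGGTCA, part of the ERR element, was in 16.3% of all windows and in 3 of the 17, from Pparg and Rxra. The short CRE is part of the full CRE. A match is a string of letters and not a shown binding site. The window of Ppargc1a held 48.7% G and C, against 74.7% for Ppara and 66% for Esrra.

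Reads assigned to genes numbered between 29823073 and 40705783 per library. Tgs1, the targeted gene, stood at 580 normalized counts with PIMT fl/fl and 160 with csPIMT-/- at 2 months, and at 816 and 162 at 6 months, so it was low in both libraries labelled csPIMT-/-. Cardiomyocyte markers (7 genes) summed to between 1013270 and 1381556 normalized counts in the 4 libraries. Myh6 was the largest part of each sum, and single markers moved both ways. Of the 7, 3 were higher in csPIMT-/- than in PIMT fl/fl at 2 months and 2 at 6 months. The libraries also differed in other tissue. The summed level of 6 white fat markers was 13 in the 2-month PIMT fl/fl library, 14600 in the 2-month csPIMT-/- library, 3345 in the 6-month PIMT fl/fl library and 2451 in the 6-month csPIMT-/- library. Of these markers Lep and Retn were at 0 in the 2-month PIMT fl/fl library. For 6 lung markers, 5 of them at 0 in the 2-month PIMT fl/fl library, the sums in the same order were 1.73, 1218, 9.67 and 18.7, and for 4 atrial markers 40736, 325567, 114957 and 348345. Most of the atrial sum was Nppa, a natriuretic peptide that failing ventricles also make, at 38182, 201180, 70659 and 320296. The atrial myosin light chain Myl7 stood at 1045, 42908, 17299 and 8084, so at 6 months it was lower in csPIMT-/-. The 2-month csPIMT-/- library thus had the highest sums of white fat and lung markers and the 2-month PIMT fl/fl library the lowest. In the 2-month csPIMT-/- library most of the lung sum was Bpifa1, at 979. There Sftpa1, Sftpb and Sftpc stood at 6.16, 9.86 and 25.9. For 4 brown fat markers the sums were 2033, 4431, 1268 and 2882 (PIMT fl/fl and csPIMT-/- at 2 months, then at 6 months). That sum was lowest in the 6-month PIMT fl/fl library and was mostly Cidea, at 1889, 2561, 1015 and 2600. Ucp1 stood at 8.65, 1766, 93.2 and 12.5 in the same order. It was lowest in the 2-month PIMT fl/fl library, and at 6 months lower in csPIMT-/-. The part of these tissues in the results below was not tested.

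Levels were compared between genes as RPKM over the longest protein-coding transcript. In PIMT fl/fl hearts Esrra was the most abundant of the regulators, with a mean level of 75.8 over the 2 ages (69.4 to 82.3). Ppara followed at 38.1 (37.2 to 39.0), then Ppargc1a at 25.1 (19.8 to 30.3) and Rxra at 20.4 (17.4 to 23.5). The ranges of these last values overlap over the ages. In each control library Ppargc1a stood above Rxra, at 30.3 against 23.5 (2 months) and 19.8 against 17.4 (6 months). With 1 library per age this order was not tested. Ppargc1b was lower at 12.2 (10.5 to 13.9). The remaining genes were Esrrg at 9.1, Nrf1 at 8.1, Pparg at 7.62, Esrrb at 5.15 and Ppard at 3.42, and from Ppargc1b down each gene overlapped the next over the 2 control libraries. In the csPIMT-/- libraries the mean level was 120 for Esrra, 28.9 for Rxra and 22.9 for Ppara, while Ppargc1a stood at 7.96 (7.28 to 8.65). There it overlapped Esrrb, Nrf1, Pparg and Ppargc1b. The gaps between genes depend on the length used. Over the union of exons of each gene, the mean of the controls was 38.8 for Esrra against 33.9 for Ppara. Nrf1 then stood at 2.83 and ranked 9 in place of 7.

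**Figure D1:**
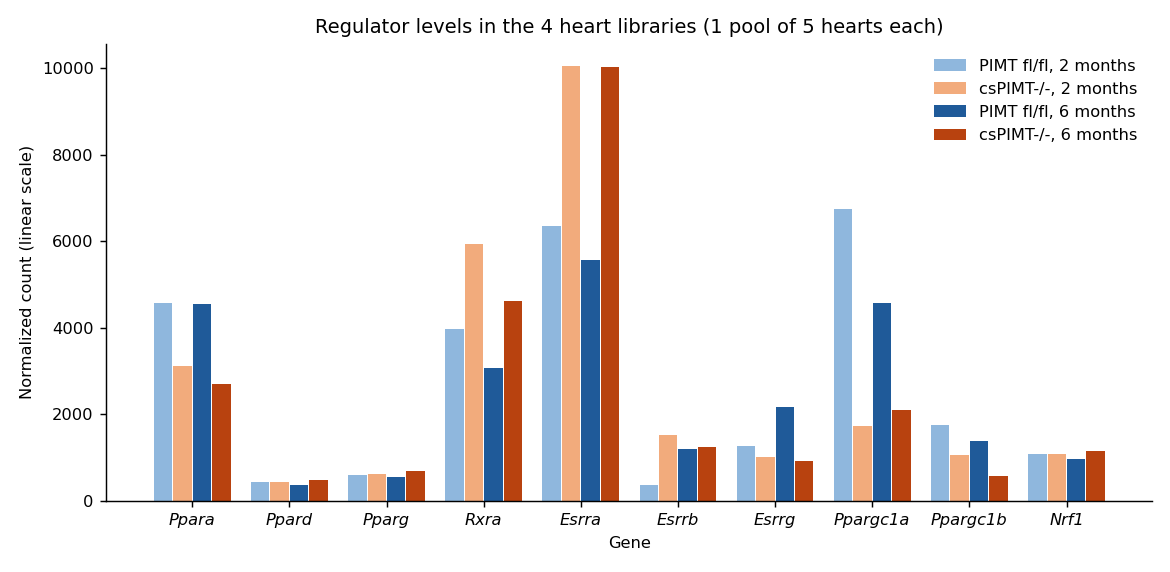
Normalized count (linear scale, y axis) of the 10 regulators (x axis) in the 4 libraries, 1 bar per library of pooled RNA from 5 hearts, so no error bar can be drawn. Both csPIMT-/- bars lie below both PIMT fl/fl bars for Ppara, Ppargc1a, Ppargc1b and Esrrg, and above them for Esrra, Rxra, Esrrb, Pparg and Nrf1, the last 3 with a csPIMT-/- and a PIMT fl/fl bar that nearly touch.

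Within each age the genotypes were compared as the ratio of csPIMT-/- over PIMT fl/fl, scaled by the size factors of the pair, with an exact 95% counting interval. With 1 library per group there is no test, and a regulator is counted where it passed a 2-fold difference. At 2 months 1 of 10 regulators was more than 2-fold lower (Ppargc1a) and 1 was more than 2-fold higher (Esrrb), where 23.0% and 16.4% of all 15152 genes with enough reads were. At 6 months 3 of 10 were more than 2-fold lower (Ppargc1a, Ppargc1b and Esrrg) and 0 were higher, beside 25.7% and 16.0% of 15218 genes. These shares are near the background. Over both ages together, limma with age as a covariate called 2 regulators lower (Ppargc1a and Ppargc1b) and 1 higher (Esrra) at an adjusted p under 0.05, where it called 17.9% of 14935 genes lower and 12.1% higher. That fit sets 2 libraries against 2 and has 1 residual degree of freedom.

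The ratio of a gene rose with the share of G and C bases in its transcript, in both ages. Across 14946 genes Spearman's rho was 0.59 at 2 months, and across 15010 genes it was 0.62 at 6 months, as a description over genes that share the same libraries. For genes of 40 to 44% GC the log2 ratio had medians of -1.22 (2 months) and -1.46 (6 months), against 0.70 and 0.69 for genes of 56 to 60% GC. The members span this range, from 41.7% in Ppargc1a and 42.5% in Esrrg to 59.8% in Ppard and 61.8% in Esrra. The ratios are therefore also given after subtraction of the lowess trend on GC content. After subtraction 11.2% of genes were more than 2-fold lower and 14.5% higher at 2 months, and 13.0% lower and 13.6% higher at 6 months. The regulators past 2-fold were then Ppargc1b (lower) and Esrrb (higher) at 2 months and Ppargc1b (lower) alone at 6 months. The targeted gene Tgs1 had ratios of 0.271 at 2 months and 0.194 at 6 months, and 0.643 and 0.527 after subtraction. Its limma log2 difference went from -2.08 (adjusted p = 0.015) to -0.76 (adjusted p = 0.21). With the trend subtracted limma called 0 of 14737 genes, with 3572 at an unadjusted p under 0.05. Between the 2 controls, 6 over 2 months, the ratio also followed GC content, in the other direction (rho -0.28 across 14918 genes). Its log2 medians were 0.26 at 40 to 44% GC and -0.10 at 56 to 60% GC. The ratios between ages given below are without subtraction. Whether these trends arose in the libraries or in the hearts was not tested.

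**Figure D2:**
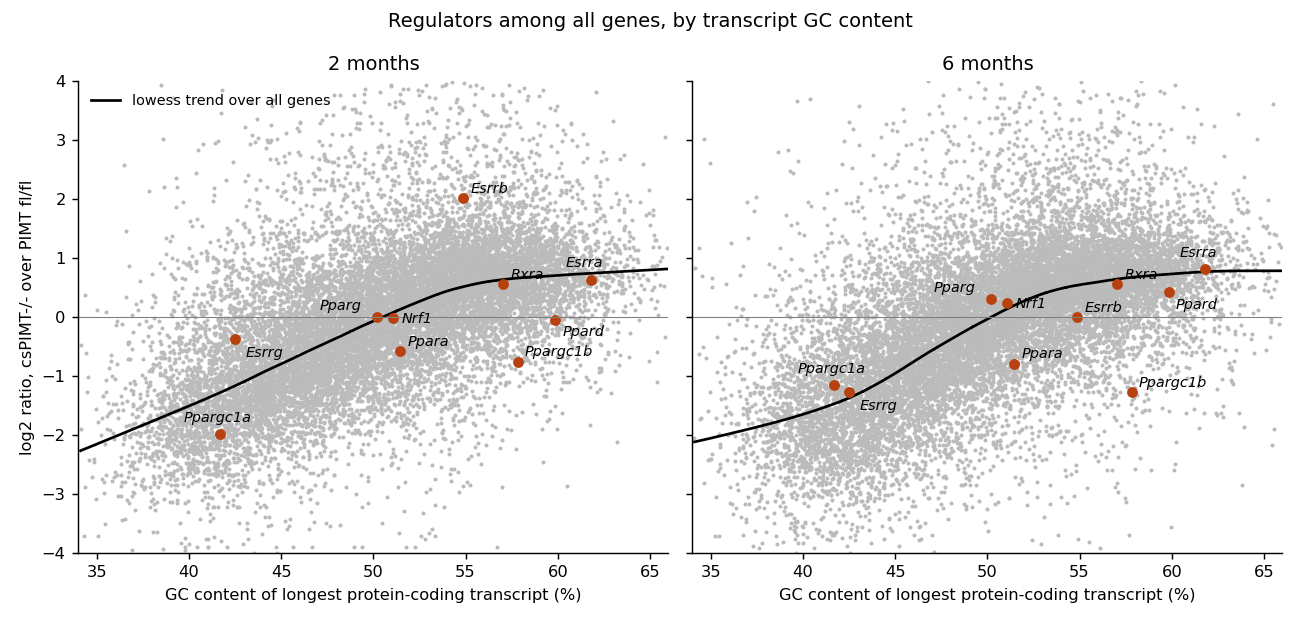
Log2 ratio of csPIMT-/- over PIMT fl/fl (y axis) against GC content of the longest protein-coding transcript (x axis, percent) at 2 and 6 months. Grey points are genes, the line is the lowess trend and the labelled points are the 10 regulators; Esrra and Rxra lie near the line, Ppargc1b and Ppara below it in both ages, and Ppargc1a at the low-GC end.

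Ppara encodes PPARα, the receptor of fatty acid oxidation genes (chr15:85734983-85802819, plus strand, GRCm38). It had 4585 normalized counts in the PIMT fl/fl library and 3119 in the csPIMT-/- library at 2 months, and 4546 and 2692 at 6 months. Both csPIMT-/- values were below both control values, and the 2 controls differed by less than either pair. The ratio was 0.667 (95% counting interval 0.636 to 0.699) at 2 months and 0.577 (0.55 to 0.605) at 6 months. Over both ages the log2 difference was -0.65 (SE 0.208) with a limma adjusted p of 0.066, which misses the threshold. Ppara has a GC content near the middle of all genes (51.5%), and the subtraction left it at 0.61 and 0.504 (limma log2 difference -0.84, unadjusted p = 0.01, adjusted p = 0.13). It was thus lower in both ages on either scale.

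Ppard, the widely expressed PPARδ (chr17:28232700-28301474, plus strand), had 432 normalized counts in PIMT fl/fl and 425 in csPIMT-/- at 2 months, and 355 and 487 at 6 months. The 2-month values overlapped within counting error, with a ratio of 0.966 (0.839 to 1.11). At 6 months the ratio was 1.33 (1.17 to 1.53). After the GC subtraction the values were 0.594 and 0.807, so that at 6 months the direction turned. Over both ages the log2 difference was 0.23 with a limma adjusted p of 0.59, and -0.53 with an adjusted p of 0.32 after subtraction.

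Pparg encodes PPARγ, best known as the receptor that drives fat cell formation (chr6:115360951-115490399, plus strand). It had 595 and 608 normalized counts in PIMT fl/fl and csPIMT-/- at 2 months, and 543 and 687 at 6 months. The ratio was 1 (0.89 to 1.13) at 2 months and 1.23 (1.1 to 1.38) at 6 months, hardly altered by the GC subtraction (1.03 and 1.23). The level of Pparg was alike in the 2 libraries of 2 months, in which the fat marker Adipoq, a hormone of fat cells, stood at 5.19 and 1830 normalized counts. The limma log2 difference of Pparg was 0.19 with an adjusted p of 0.61.

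Rxra, the RXRα subunit with which PPARs pair (chr2:27676440-27762957, plus strand), had 3970 normalized counts in PIMT fl/fl and 5939 in csPIMT-/- at 2 months, and 3063 and 4610 at 6 months. The csPIMT-/- values lay above both controls. The ratio was 1.47 in both ages (1.41 to 1.53 at 2 months, 1.4 to 1.53 at 6 months). The limma log2 difference was 0.59 (SE 0.201) with an adjusted p of 0.074. Genes with the GC content of Rxra (57%) had a trend of 0.63 and 0.64 in log2 ratio, and after subtraction Rxra stood at 0.945 and 0.939.

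Esrra encodes ERRα, the main ERR for respiratory genes (chr19:6910977-6921813, minus strand). It had 6363 normalized counts in PIMT fl/fl and 10061 in csPIMT-/- at 2 months, and 5574 and 10024 at 6 months. The 2 csPIMT-/- libraries were nearly equal and well above both controls. The ratio was 1.55 (1.5 to 1.6) at 2 months and 1.75 (1.7 to 1.81) at 6 months, and Esrra rose over both ages by a log2 difference of 0.76 (SE 0.206, limma adjusted p = 0.043). The call was lost when any 1 library was left out, where the log2 difference was 0.66 to 0.85, and with edgeR (adjusted p = 0.056). Its transcript has the highest GC content of the 10, with a trend of 0.74 and 0.77. After subtraction the ratios were 0.928 and 1.03. With GC taken from its longest transcript of any type (50.3%), a retained intron, they stayed at 1.53 and 1.67. The limma log2 difference was then 0.69 with an adjusted p of 0.13. Exons of Esrra share 73 bases with Trmt112 on the opposite strand, and reads there cannot be told apart if counting ignored strand.

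Esrrb encodes ERRβ, better known from stem cells and the inner ear (chr12:86361117-86521628, plus strand). It had 367 normalized counts in PIMT fl/fl and 1512 in csPIMT-/- at 2 months, and 1206 and 1233 at 6 months. A single library, the 2-month PIMT fl/fl pool, was low, and the other 3 lay within 1206 to 1512. The ratio was 4.04 (3.61 to 4.52) at 2 months and 0.996 (0.921 to 1.08) at 6 months, and with the GC trend subtracted 2.83 (2.54 to 3.17) and 0.687 (0.635 to 0.743). Set against the 6-month control, no regulator was more than 2-fold higher at 2 months. In controls alone Esrrb was the only regulator with more than a 2-fold difference between ages, at 3.14 (2.81 to 3.51) for 6 over 2 months, where 8.15% of all genes were more than 2-fold higher and 5.21% lower. The library with low Esrrb was also the one with the lowest Myl7 and the lowest sums of white fat and lung markers. The limma adjusted p over both ages was 0.16.

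Esrrg, the ERRγ of oxidative and cardiac muscle (chr1:187608791-188214885, plus strand), had 1277 normalized counts in PIMT fl/fl and 1004 in csPIMT-/- at 2 months, and 2166 and 918 at 6 months. The highest value by far was that of the 6-month control. The ratio was 0.77 (0.706 to 0.84) at 2 months and 0.413 (0.382 to 0.446) at 6 months, while the control of 6 months was 1.62 times (1.52 to 1.73) that of 2 months. The limma log2 difference was -0.78 (SE 0.3) with an adjusted p of 0.099. For this AT-rich transcript the subtraction turned the direction, to 1.73 at 2 months and 1.07 at 6 months.

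Ppargc1a encodes PGC-1α, the coactivator that couples energy demand to mitochondrial gene expression (chr5:51454250-51567726, minus strand). It had 6755 normalized counts in PIMT fl/fl and 1730 in csPIMT-/- at 2 months, and 4585 and 2104 at 6 months. Both csPIMT-/- libraries were below both controls, and the gap was wider at 2 months. The ratio was 0.251 (0.237 to 0.266), a 3.98-fold lower level, at 2 months and 0.447 (0.424 to 0.471) at 6 months. In the controls the level at 6 months was 0.648 times that at 2 months (0.626 to 0.672), and in csPIMT-/- hearts it was 1.18 times (1.1 to 1.27). Ppargc1a fell over both ages by a log2 difference of -1.53 (SE 0.265, limma adjusted p = 0.017). The call was lost without the 2-month control, where the log2 difference was -1.26. At its GC content of 41.7% the trend over all genes was -1.29 at 2 months and -1.48 at 6 months. After subtraction the ratio was 0.612 (0.578 to 0.648) at 2 months and 1.24 (1.18 to 1.31) at 6 months, and the limma log2 difference was -0.19 (adjusted p = 0.73).

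Ppargc1b encodes PGC-1β, a relative of PGC-1α that also coactivates PPARs and ERRs (chr18:61298136-61400431, minus strand). It had 1756 normalized counts in PIMT fl/fl and 1057 in csPIMT-/- at 2 months, and 1376 and 582 at 6 months. All csPIMT-/- values were below all control values, and the lowest was at 6 months. The ratio was 0.59 (0.544 to 0.639) at 2 months and 0.412 (0.373 to 0.454) at 6 months. Ppargc1b fell over both ages by a log2 difference of -0.98 (SE 0.258, limma adjusted p = 0.041). The call was lost without the 2-month control (log2 difference -0.81), the 6-month control (-1.16) or the 6-month csPIMT-/- library (-0.60). Unlike Ppargc1a, Ppargc1b has a GC-rich transcript (57.8%), where the trend was 0.66 and 0.67, so that subtraction lowered its ratio to 0.374 (0.345 to 0.405) and 0.259 (0.234 to 0.285). On that scale it had the lowest ratio of the 10 in both ages, with a limma log2 difference of -1.68 (unadjusted p = 0.0016, adjusted p = 0.099). In csPIMT-/- hearts its level at 6 months was 0.535 times (0.48 to 0.596) that at 2 months, the lowest such value among the 10.

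Nrf1, a factor of nuclear genes for mitochondrial proteins (chr6:30047988-30153458, plus strand), had 1081 normalized counts in PIMT fl/fl and 1089 in csPIMT-/- at 2 months, and 956 and 1156 at 6 months. The ratio was 0.987 (0.905 to 1.08) at 2 months and 1.18 (1.08 to 1.28) at 6 months. The GC subtraction left 0.938 and 1.07. The limma log2 difference was 0.15 with an adjusted p of 0.65. With GC taken from its longest transcript of any type, a retained intron, the ratios were 1.56 and 2.04. The limma log2 difference was then 0.84 with an adjusted p of 0.13.

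**Figure D3:**
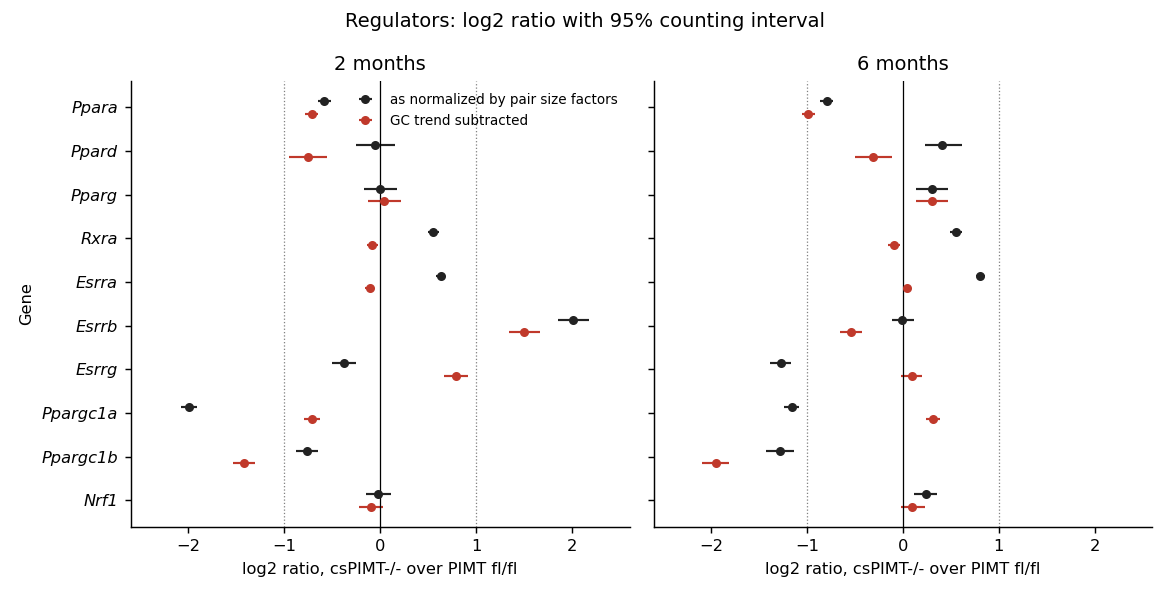
Log2 ratio of csPIMT-/- over PIMT fl/fl (x axis) for the 10 regulators (y axis) at 2 and 6 months, with bars for the exact 95% counting interval and dotted lines at a 2-fold difference. Black points are scaled by the size factors of the pair and red points have the GC trend subtracted; Ppara and Ppargc1b are below 0 on both scales in both ages, while Esrra, Rxra and Esrrg shift across or close to 0.

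Genes known to work with these regulators were taken from 6 lists of 109 genes in all. The lists of PPARα, of ERR and PGC-1, and of NRF1 hold target genes. The others hold coregulators, other nuclear receptors, and upstream or parallel factors. Of 27 PPARα target genes of fatty acid uptake and oxidation, 8 fell and 1 rose over both ages by limma, with a median log2 difference of -0.34 against 0.04 for all genes. For this and the following lists the shares over all genes are 17.9% lower and 12.1% higher by limma. At 2 months 8 of 27 were more than 2-fold lower and 1 higher, and at 6 months 8 and 0, where 23.0% and 25.7% of all genes were lower. Decr1, an enzyme for the oxidation of unsaturated fatty acids, fell, with a ratio of 0.5 at 2 months and 0.186 at 6 months (limma adjusted p = 0.028). Ucp3, a mitochondrial carrier of muscle, fell, with ratios of 0.451 and 0.238 (adjusted p = 0.021). Plin2, a coat protein of lipid droplets, rose, with ratios of 1.85 and 1.65 (adjusted p = 0.033). The GC subtraction took the log2 median of the list from -0.67 to -0.48 at 2 months and left it at -0.34 at 6 months. On that scale 5 genes at 2 months and 7 at 6 months were more than 2-fold lower, beside the 11.2% and 13.0% of all genes given above, and 22 and 19 of 27 were below 1. Among the genes called lower, Ucp3 stood at 0.379 and 0.19 after subtraction and Decr1 at 0.918 and 0.389. Picked after their values were seen, Cd36, a fatty acid transporter, went from 0.372 and 0.343 to 1.22 and 1.19, Acadl to 0.901 and 0.914, and Hadhb to 0.999 and 0.975. Plin2 stood at 1.6 and 1.36. Ehhadh, a peroxisomal enzyme, had a ratio of 6.38 at 2 months and 0.835 at 6 months, from 548 reads in the 2-month PIMT fl/fl library, 2502 in the 2-month csPIMT-/- library, 1227 in the 6-month PIMT fl/fl library and 889 in the 6-month csPIMT-/- library. With the GC trend subtracted its ratio was 9 and 1.23.

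Of 17 targets of ERR and PGC-1, 5 fell (Cycs, Idh3a, Sdha, Sucla2 and Vegfa) and 0 rose by limma, beside 17.9% and 12.1% of all genes. Sucla2, a subunit of succinate-CoA ligase in the tricarboxylic acid cycle, had ratios of 0.217 at 2 months and 0.0845 at 6 months (adjusted p = 0.012). Cycs, cytochrome c, had ratios of 0.138 and 0.207 (adjusted p = 0.012). At the other end, Ckmt2, the mitochondrial creatine kinase, had ratios of 1.57 and 1.18 and Ogdh, a tricarboxylic acid cycle enzyme, 1.47 and 1.19, neither past the test (adjusted p = 0.26 and 0.28). The log2 medians of the list were 0.01 (2 months) and -0.39 (6 months), and -0.17 and -0.52 with the GC trend subtracted. After subtraction Sucla2 stood at 0.455 and 0.204 and Cycs at 0.364 and 0.615. Ckmt2 stood at 1.57 and 1.13 and Ogdh at 1.23 and 0.942.

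Of 13 NRF1 targets, 3 fell (Tfam, Tfb2m and Tomm70a) and 1 rose (Cox6a1) by limma, which is near the 17.9% and 12.1% of all genes. Tfam, which packages and transcribes mitochondrial DNA, had ratios of 0.258 at 2 months and 0.163 at 6 months (adjusted p = 0.012), and 0.452 and 0.32 with the GC trend subtracted. Tomm70a, a receptor for protein import, had ratios of 0.219 and 0.227 (adjusted p = 0.012), and 0.586 and 0.679 after subtraction. Cox6a1, a subunit of cytochrome c oxidase, had ratios of 1.4 and 2.04 (adjusted p = 0.049), and 0.875 and 1.26 after subtraction, so that the 2-month direction turned. Tomm34, a cytosolic partner of import, had 1.67 and 1.37 (adjusted p = 0.088), and 1.13 and 0.92 after subtraction.

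Of 18 further coregulators 3 fell (Med1, Ncor1 and Sirt1) and 0 rose by limma, where 17.9% of all genes fell and 12.1% rose. Sirt1, the deacetylase that acts on PGC-1α, had ratios of 0.243 at 2 months and 0.329 at 6 months (adjusted p = 0.015), and 0.468 and 0.727 with the GC trend subtracted. Ncor1, a corepressor of nuclear receptors, had ratios of 0.366 and 0.52 (adjusted p = 0.021), and 0.447 and 0.64 after subtraction. The corepressor partner Hdac3 had 1.31 and 1.54 (adjusted p = 0.096) and the arginine methyltransferase Carm1 1.45 and 1.36 (adjusted p = 0.11). Subtraction left Hdac3 at 1.35 and 1.55 and Carm1 at 0.931 and 0.864. Among 19 other nuclear receptors 2 fell (Nr3c1 and Rarb) and 4 rose by limma, Nr1h3 among them, beside the same shares of all genes. Nr3c1, the glucocorticoid receptor, had ratios of 0.369 and 0.308 (adjusted p = 0.012), yet 0.855 and 0.82 with the GC trend subtracted. Rarb, a retinoic acid receptor, had ratios of 0.41 and 0.271 (adjusted p = 0.019), and 0.537 and 0.362 after subtraction. Nr1h3, the oxysterol receptor LXRα, had 5.91 and 2.33 (adjusted p = 0.021), and its 405 reads in the 2-month PIMT fl/fl library were the lowest of its 4 values. Nr1d1, the clock repressor REV-ERBα, had 6.34 and 1.36 (adjusted p = 0.068). After subtraction Nr1h3 stood at 3.76 and 1.47 and Nr1d1 at 4.11 and 0.879.

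The list with the most genes called was that of 15 factors that act upstream of or beside the regulators, including the MEF2, CREB and AMPK families. Of these 10 fell and 1 rose by limma, with a median log2 difference of -1.07. Creb1, which activates Ppargc1a transcription, had ratios of 0.331 at 2 months and 0.215 at 6 months (adjusted p = 0.013). Gabpa, a subunit of the factor NRF2, had 0.318 and 0.238 (adjusted p = 0.012). Klf15, a factor of fatty acid metabolism, rose, with ratios of 1.64 and 2.98 (adjusted p = 0.029). After subtraction Creb1 stood at 0.979 and 0.694, Gabpa at 0.797 and 0.679 and Klf15 at 1.15 and 2.05. Here the GC subtraction took the median log2 ratio from -1.19 to -0.31 at 2 months and from -1.13 to -0.06 at 6 months. On that scale 2 genes at 2 months and 0 at 6 months were more than 2-fold lower, in place of 9 and 8.

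**Figure D4:**
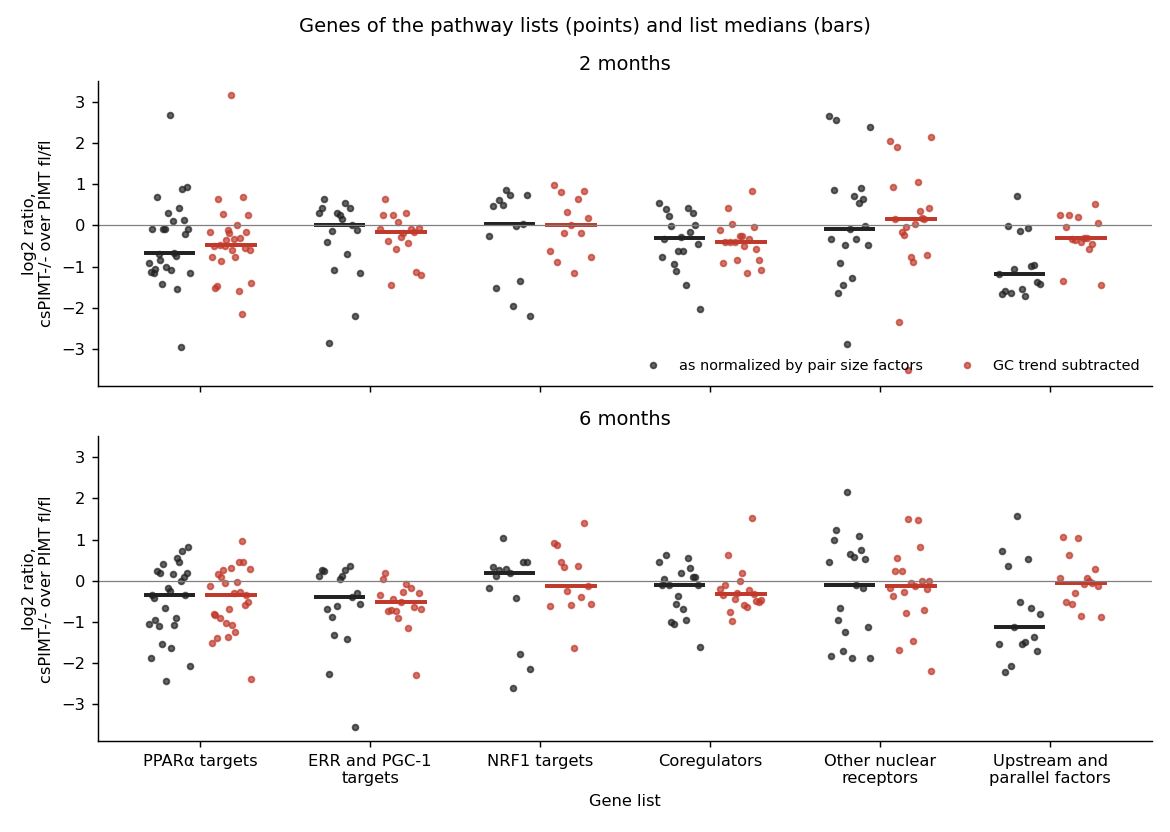
Log2 ratio of csPIMT-/- over PIMT fl/fl (y axis) of the genes in 6 pathway lists (x axis) at 2 and 6 months, with 1 point per gene and a bar at the list median. Black points are scaled by the size factors of the pair and red points have the GC trend subtracted; the median of the upstream and parallel factors moves from -1.13 to -0.06 at 6 months, while that of the PPARα targets stays at -0.34.

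For the regulators the gene of these lists with the most similar pattern over the 4 libraries was found by Euclidean distance of centred log2 values, among 109 genes. Ppargc1a lay nearest to Mef2c, at 0.437, and Ppargc1b to Hadha, a subunit of the mitochondrial trifunctional protein, at 0.156. Ppara was nearest to Ncoa6, which encodes the partner to which PIMT binds, at 0.0892. Esrrg was nearest to Thrb (0.146), Rxra to Mlycd (0.155) and Esrrb to Nr1d1 (0.628). Ppard was nearest to Mef2d (0.0852), Pparg to Tomm20 (0.117) and Nrf1 to Pprc1 (0.106). The distance of a gene from its own mean was 0.321 for Ppard, 0.236 for Pparg and 0.201 for Nrf1, against 1.59 for Ppargc1a. A gene that varied little lies near any other such gene, so these distances cannot be compared between regulators. The GC trend was not subtracted from these log2 values, and its part in a likeness was not tested. With 4 libraries, such a likeness describes these samples only, and in whole heart fewer cells of a type and less RNA per cell cannot be told apart.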

How the data were processed

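RNA pooled from 5 hearts per group was sequenced by the authors as single reads after poly(A) selection, on a directional library kit. Per the study's methods, trimmed reads were aligned to mm10 with STAR and counted per gene with HTSeq (0.6.1p1 per the labels) on a UCSC annotation. Whether the counting used strand, and how libraries fell into runs, is not given in the sources used here. The deposited signal values are read counts divided by DESeq2 size factors. They were turned back into whole reads, where 1 read was worth 0.865, 1.23, 0.879 and 1.04 normalized counts (PIMT fl/fl and csPIMT-/- at 2 months, then at 6 months) and 100% of values came out whole within 1e-06.

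Ratios used median-of-ratios factors of each pair, genes with at least 10 reads in 1 library, 0.5 reads added for log2 values, and exact (Clopper-Pearson) 95% intervals, which cover counting error only. The GC content is that of the longest protein-coding transcript (GENCODE M21, GRCm38), with a lowess span of 0.3. Over both ages, limma 3.58.1 with mean trend was fitted on log2(reads scaled by TMM + 1) with age and genotype, for genes with at least 10 scaled reads in 2 libraries and 15 in all. P-values were adjusted by Benjamini-Hochberg over all genes. With 1 library per age and genotype, the 1 residual degree of freedom is the difference of the genotype effect between the ages. A gene whose effect differs with age thus gets a larger variance. The fit adds 4.51 prior degrees of freedom drawn from all genes. No p-value measures a spread among replicate pools. On the recovered reads edgeR 4.0.16 called 2508 genes lower and 1619 higher. DESeq2 1.42.0 (Wald test), another GC definition, other scalings and filters, and each library left out were alternatives. The scripts were tested on simulated data.

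Named from each list are the extremes of the mean log2 ratio over both ages (2 at either end, among genes that reach 100 reads in any library), and calls where 5 or fewer. The nearest gene of Esrra and some names of called nuclear receptors are not reported here. The members and lists were chosen with earlier results of these data known. Sequences are from RefSeq (GRCm38.p6), and 9 of 10 members matched.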

Additional observations from a re-analysis of the deposited data

Results flagged for a closer look

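Among the genes named above, Ehhadh moved in opposite directions at the 2 ages. Its ratio of csPIMT-/- over PIMT fl/fl was 6.38 (95% counting interval 5.81 to 7.01) at 2 months and 0.835 (0.765 to 0.911) at 6 months. With the GC trend subtracted it was 9 and 1.23, above 1 at both ages. With 1 library per group the difference between the ages was not tested. The 2-month PIMT fl/fl library held the lowest of the 4 read counts of Ehhadh, as it did for Esrrb.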

How the results depend on the processing

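Each group has 1 library, so no replicate numbers pair libraries, and the only pairing is by age. Age, which each control shares with 1 csPIMT-/- library, is a covariate of the limma fit. Of the regulators past 2-fold, other settings gave these counts. Against the control of the other age, 2 were lower and 0 higher at 2 months, beside 26.2% and 13.5% of all genes. At 6 months 1 was then higher, beside 18.2%. Against both controls summed, 0 were higher at 2 months, beside 2005 of 15646 genes. At 1.5-fold, 2 were lower and 2 higher at 2 months (33.5% and 29.6% of all genes), and 4 lower and 1 higher at 6 months (35.0% and 29.3%). With the GC trend subtracted, 1 was lower at 6 months. GC was also taken from the longest transcript of any type, a setting added after seeing the data. There 1 was higher at 6 months (Nrf1), beside 2137 of 15010 genes. Of the calls over both ages, limma gave 0 lower and 0 higher without its mean trend, where it called 0 of 14935 genes. There 5934 genes had an unadjusted p under 0.05 (edgeR called 2508 lower and 1619 higher). Either GC subtraction likewise left 0 calls. Genotype alone gave 1 lower (18% of all genes), and edgeR 0 higher (10.8%). Leaving out 1 library, with genotype alone and the lone sample assumed to vary like the rest, gave 0 to 3 lower and 0 to 0 higher.

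The GC subtraction reversed these log2 values, with the any-type GC value in brackets where it also did. At 2 months Esrra became -0.11, Esrrg 0.79 (0.69) and Rxra -0.08 (-0.09). At 6 months Ppard became -0.31, Ppargc1a 0.32 (0.22), Esrrg 0.10 and Rxra -0.09 (-0.10). Over both ages Ppard became -0.53 (-0.11), Esrra -0.03, Esrrg 0.45 (0.36) and Rxra -0.08 (-0.09). The any-type transcripts of Esrra, Nrf1 and Ppard are retained introns. The cause of these shifts was not tested. Ppara and Ppargc1b kept their direction under every setting tried.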
